A study of Mus musculus with 17 samples.

Results

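Collagens, laminins and integrins are the main chains of the extracellular matrix and the receptors by which cells hold on to it. Their genes were followed across adult mouse liver progenitor cells, the cells that these gave in culture, and mature liver cells. Members were all non-control probes whose gene name in the scanner files starts as a collagen chain (Col and a), a laminin chain (Lam with a, b or c) or an integrin chain (Itg with a or b). The rule found 120 of 39429 probes, which carry 85 of 31693 gene names. Of these genes, 41 were collagens, 11 laminins and 27 integrins. The other 6 match by name only and encode no such chain: Cert1 (Col4a3bp on the array), Nmrk2 (Itgb1bp3), Itgb1bp1, Itgb1bp2, Itgb3bp and Itgbl1. After the filter on dim probes, 72 genes could be tested (33 collagens, 11 laminins, 23 integrins and 5 of the others). The 13 untested genes were Col4a3, Col6a6, Col8a1, Col9a3, Col13a1, Col19a1, Col22a1, Col24a1, Itgad, Itgax, Itgb2l, Itgb8 and Itgbl1.

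All 17 arrays came from Foxl1-CRE; RosaYFP mice aged 6 to 10 weeks, in which Cre recombinase is driven by the Foxl1 gene and turns on a yellow fluorescent reporter. The groups were undifferentiated adult hepatic progenitors (4 arrays), progenitors differentiated in vitro towards hepatocytes (4 arrays, the hepatocyte condition) or towards cholangiocytes, the bile duct cells (3 arrays, the cholangiocyte condition), primary hepatocytes (4 arrays) and primary cholangiocytes (2 arrays). The stated design set the differentiated cells against the primary ones. The labels do not give the agents or the duration of differentiation, nor whether replicates came from separate cultures or animals. The p-values therefore speak only of the spread among these 17 arrays, which may be technical.

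As background, bile duct epithelium rests on a continuous basement membrane, a sheet built of type IV collagen networks and of laminins, each a trimer of an alpha, a beta and a gamma chain. Hepatocytes face the space of Disse, which holds only a loose matrix without such a sheet. Integrins are pairs of an alpha and a beta chain, and the pair sets the ligand: collagen, laminin, or proteins with an RGD motif such as fibronectin. The beta chain Itgb6 pairs with Itgav in epithelia and is known for activating latent transforming growth factor beta.

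The level of a probe is its log2 intensity relative to the 75th percentile of its array, so that 0 is that percentile. Differences are log2, first group minus second, with their standard error (SE) from limma, fitted on the 17 arrays together. A gene passed when its p, adjusted by Benjamini and Hochberg's method over the 25975 genes tested, was under 0.05. The 75th percentile lay between 544 and 983 intensity units in primary hepatocytes and between 1739 and 2847 on the other arrays, and 23902 to 29256 probes per array were well above background. Marker means fitted the labels of the primary cells. For 8 hepatocyte markers the mean log2 level was 7.21 to 7.72 in primary hepatocytes and -5.38 to -3.00 in primary cholangiocytes. For 8 cholangiocyte markers it was -5.24 to -4.48 and 2.08 to 2.30, and 6 of these 8 passed as lower in primary hepatocytes. Cftr, on the cholangiocyte list, went the other way, at -1.46 on average in primary hepatocytes and -3.1 in primary cholangiocytes. Sox9, also on that list, overlapped between the primary cell types (-3.74 to -2.03 and -3.63 to -0.54). In culture the hepatocyte markers varied widely between arrays, from -5.67 to -0.37 in undifferentiated progenitors and from -2.50 to 3.34 in the hepatocyte condition. In the cholangiocyte condition they lay at -4.19 to -3.06. The mean of the cholangiocyte markers was -2.48 to -1.72 in the cholangiocyte condition, below the 2.08 to 2.30 of primary cholangiocytes. It was no higher there than in undifferentiated progenitors (-2.08 to -1.61) or the hepatocyte condition (-2.54 to -1.41).

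Itgb6 lies on chromosome 2 (GRCm38.p6, 60598292 to 60722603) and was measured by 2 probes of 60 bases, shown because its result turns on them. The brighter probe stands for the gene, and the dimmer is given beside it.
Itgb6, brighter probe: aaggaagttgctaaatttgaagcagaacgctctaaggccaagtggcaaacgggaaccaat
Itgb6, dimmer probe: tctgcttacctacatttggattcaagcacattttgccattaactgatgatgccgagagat

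Col4a1 and Col4a2, the chains of the most widespread type IV collagen, lie head to head on chromosome 8, and both passed in the same direction in both comparisons with primary hepatocytes below, which share the primary hepatocyte arrays. Col4a1 spans 11198423 to 11312889 and Col4a2 11312805 to 11449287 (GRCm38.p6). The RefSeq windows, from 250 bases before to 50 after a start listed for each gene, share 78 bases. For Col4a1 that start lies inside the span given above and not at its outer end, 11312889. They are printed 5′ to 3′ on the strand of the gene, Col4a1 as chr8:11312777-11313076 on the minus strand and Col4a2 as chr8:11312555-11312854 on the plus strand. Capitals mark the GC box GGGCGG and the CCAAT box, searched on both strands.
Col4a1: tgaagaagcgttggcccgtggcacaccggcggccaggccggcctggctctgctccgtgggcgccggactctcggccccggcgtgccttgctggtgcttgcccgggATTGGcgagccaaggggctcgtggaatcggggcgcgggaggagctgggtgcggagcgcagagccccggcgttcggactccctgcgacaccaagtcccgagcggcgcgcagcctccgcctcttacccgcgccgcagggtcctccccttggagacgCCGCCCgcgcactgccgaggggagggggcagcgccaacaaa
Col4a2: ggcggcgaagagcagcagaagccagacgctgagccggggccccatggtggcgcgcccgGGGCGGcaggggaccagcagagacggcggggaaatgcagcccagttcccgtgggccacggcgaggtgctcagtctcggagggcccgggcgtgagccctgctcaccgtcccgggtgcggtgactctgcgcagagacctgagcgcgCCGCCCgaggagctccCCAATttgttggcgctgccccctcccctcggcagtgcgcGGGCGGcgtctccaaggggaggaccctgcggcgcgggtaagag
The Col4a1 window holds 1 GC box and 1 CCAAT box, and the Col4a2 window 3 and 1. Of 32851 such windows in the table, 35.7% hold a GC box and 37.4% a CCAAT box. Neither window holds TATAAA, present in 13.6% of windows, or TGANTCA, present in 7.81%. Of the 85 genes, 62 have a window in the table.

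Between the mature cell types, primary hepatocytes had lower levels of 7 laminin chains, of Col4a1, Col4a2 and Col4a5, and of the epithelial integrin chains Itga2, Itga3, Itga6, Itgb4 and Itgb6. Of the 7 basement membrane collagens tested, 4 were higher in primary hepatocytes and 3 lower. Of the 72 genes tested, 14 were higher in primary hepatocytes and 23 lower, where 49.6% of all 25975 genes passed (27.9% higher and 21.7% lower). The member median was 0.05, beside 0.35 over all genes, a value that was 0.15 when arrays were scaled by their medians and 0.00 after quantile normalization. With normexp, a background correction that draws dim values together, the split was 36 higher and 21 lower, beside 14338 and 4812 of all 25975 genes. The families differed in these counts: laminins 0 higher and 7 lower of 11 (median -4.64), collagens 9 and 6 of 33 (0.46), integrins 4 and 10 of 23 (0.15).

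**Figure D1:**
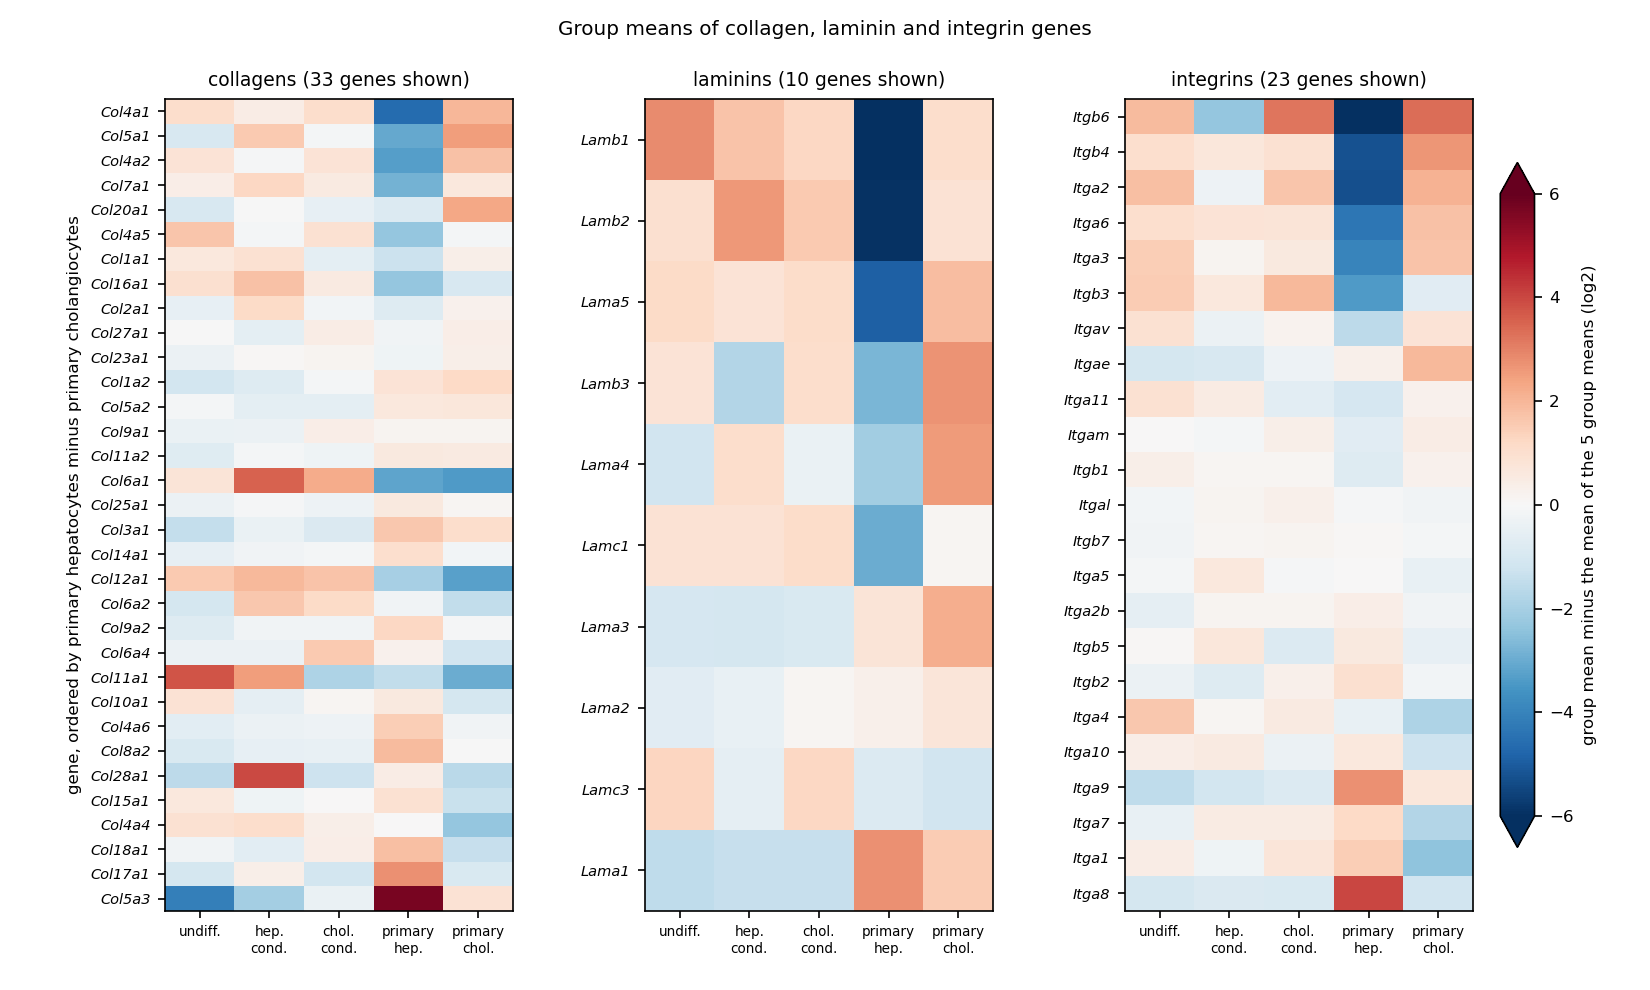
Group means of 33 collagen, 10 laminin and 23 integrin genes, each as the log2 difference from the mean of its 5 group means (colour), in undifferentiated progenitors, the hepatocyte and cholangiocyte conditions, primary hepatocytes and primary cholangiocytes. Genes are ordered by the difference between the primary cell types. The laminins Lamb1, Lamb2, Lama5, Lamb3, Lama4 and Lamc1 passed as lower in primary hepatocytes, while Col5a3, Col18a1, Col17a1, Itga1 and Itga8 lie at the other end.

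Among the beta chains, Lamb1 stood at 1.88 and 3.01 in primary cholangiocytes and at -6.68, -4.54, -4.49 and -6.08 in primary hepatocytes, a difference of -7.89 ± 0.61 (SE, adjusted p = 1.30e-07). Lamb2 differed by -6.79 ± 0.59 and Lamb3, a beta chain of epithelial anchoring laminins, by -5.44 ± 0.99 (adjusted p = 0.000375). In bulk RNA, fewer cells that express a gene and less RNA per cell cannot be told apart, here and below. Lama5, the alpha chain of the main laminins of mature epithelia, differed by -6.75 ± 0.40, from 5.32 and 4.75 in primary cholangiocytes to -1.07, -2.08, -2.11 and -1.59. The arrays of the 2 cell types did not overlap for any of these chains. Lama4, otherwise a chain of vessels, passed too (-4.64 ± 1.5, adjusted p = 0.0190), though its 2 primary cholangiocyte arrays lay far apart at -3.12 and 0.41. Of the 4 primary hepatocyte arrays, Lamb1 and Lama4 were above background on 2 and Lamb2 on 3. The sizes of their differences from this group are therefore less exact, here and below. Lama1 and Lama3 did not pass, and their differences of 1.20 and -1.41 changed sign without primary cholangiocyte replicate 3, to -0.34 and 0.14.

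Col4a1 stood at 3.05 and 4.10 in primary cholangiocytes and at -2.92, -2.58, -3.05 and -3.60 in primary hepatocytes, a difference of -6.61 ± 0.44 (adjusted p = 2.98e-08). Col4a2 differed by -5.05 ± 0.44 (adjusted p = 3.78e-07). The kidney and skin type chain Col4a5 differed by -2.20 ± 0.30, whereas Col4a6, beside which it lies on chromosome X, was higher in primary hepatocytes by 1.65 ± 0.46 (adjusted p = 0.00794). The other probe of Col4a6 differed by 0.95 and did not pass. Col5a1, a chain that nucleates collagen fibrils, was not above background in primary hepatocytes. A gene below background on every array of a group has only a bound, computed against the dimmest signal well above background on those arrays or its own signal if brighter. By that bound Col5a1 was at least 29.5-fold lower in primary hepatocytes.

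The integrin chains that bind laminin followed the same order. Itgb4, the hemidesmosome chain, stood at 3.10 and 3.35 in primary cholangiocytes and between -4.86 and -4.36 in primary hepatocytes, a difference of -7.87 ± 0.67 (adjusted p = 3.18e-07). Its partner Itga6 differed by -6.11 ± 0.36 and Itga3, a laminin receptor with Itgb1, by -5.67 ± 0.41, so 3 of the 4 laminin-binding chains passed as lower, and Itga7 did not (2.93 ± 1.35, adjusted p = 0.0858). Itga2, a collagen receptor, was at least 43.5-fold lower and Itgb6 at least 217-fold lower (adjusted p = 1.09e-06), each not above background on the 4 primary hepatocyte arrays. The dimmer Itgb6 probe differed by -6.44 (adjusted p = 5.64e-07). Itgb1, the common partner of most alpha chains, differed by only -1.02 ± 0.34 (adjusted p = 0.0237), and its other probe by -0.46, which did not pass.

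A smaller set was higher in primary hepatocytes. Col18a1, the basement membrane collagen that yields endostatin, stood at 6.59, 6.75, 6.62 and 6.64 there and at 3.75 and 3.23 in primary cholangiocytes, a difference of 3.16 ± 0.29 (adjusted p = 6.65e-07), and its other probe gave 3.52. Col5a3, a minor fibrillar chain, stood at 1.73, 1.52, 0.67 and 0.51 against -4.21 and -3.21 (4.82 ± 1.13, adjusted p = 0.00268). Itga8, a receptor for nephronectin, was at least 7.05-fold higher, and Itga1, a collagen receptor, differed by 3.88 ± 0.49 (adjusted p = 1.34e-05). Itga9, which binds tenascin and VCAM, differed by 2.11 ± 0.65 and did not pass without primary cholangiocyte replicate 3 or after quantile normalization. Most endothelial markers were also higher in primary hepatocytes. The mean level of the 8 markers tested of 9 listed was -2.79 to -2.09 there and -5.71 to -4.85 in primary cholangiocytes. In the cultured groups it was -7.34 to -6.11. In primary hepatocytes none of the 8 was below background, and Stab2, a receptor of sinusoidal endothelium, stood at 0.74 on average there against -6.72 in primary cholangiocytes. Vwf went the other way, at -4.34 on average in primary hepatocytes and -2.23 in primary cholangiocytes. The part of endothelial cells in the levels of Itga1, Itga8, Itga9 and the collagens was not tested.

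**Figure D2:**
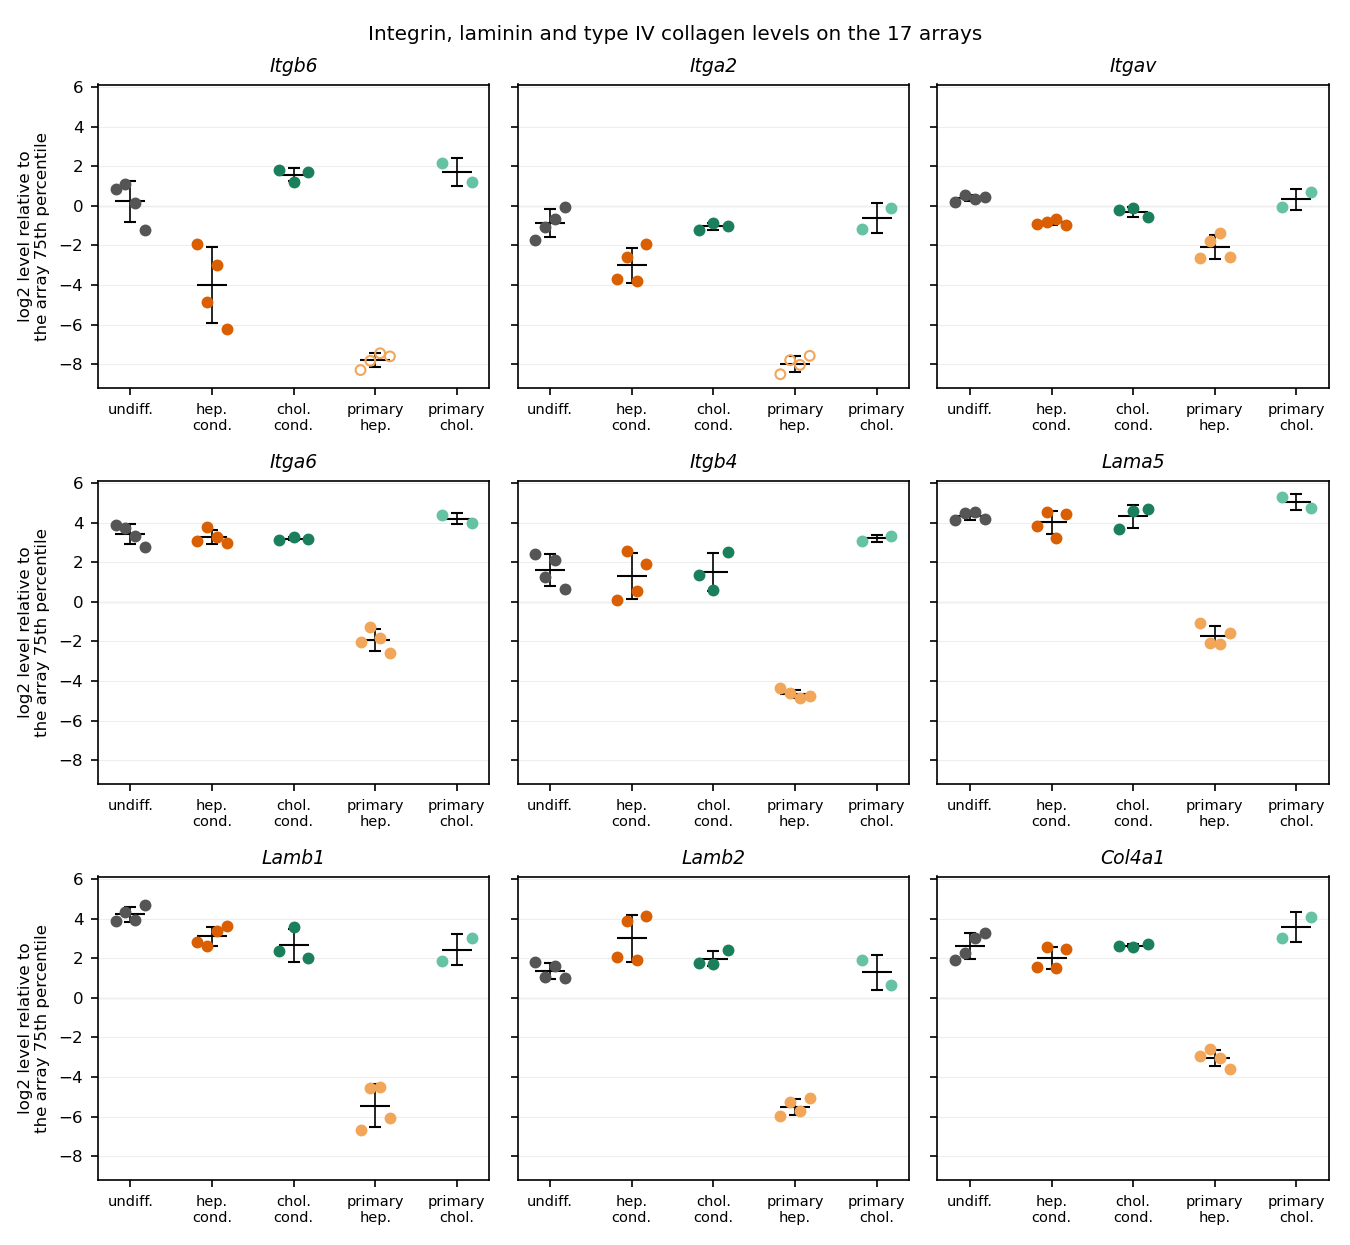
Log2 level, with each array's 75th percentile at 0 (vertical axis), of 9 genes on each of the 17 arrays (points), by group, with mean and SD (bars). Open points mark groups in which no array was well above background. Every array of the 3 cultured groups lay above every primary hepatocyte array for Itga6, Itgb4, Lama5, Lamb1, Lamb2 and Col4a1, and Itgb6 and Itga2 were lower in the hepatocyte condition than in the other cultured groups.

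The next comparison asked how progenitors changed in the hepatocyte condition. Of the 72 genes, 4 were higher and 7 lower than in undifferentiated progenitors, where 15.3% of all genes passed (7.63% higher and 7.68% lower), so the share of members was no larger than the background. The member median was 0.12, beside 0.08 over all genes. Scaling by the median in place of the 75th percentile gave 1 higher and 7 lower, and quantile normalization 2 and 8. Without hepatocyte condition replicate 2 or 4, 6 and 7 members passed in place of 11. Collagens passed in 2 cases higher and 1 lower, laminins in 1 and 2, and integrins in 1 and 4.

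Itgb6 showed the largest fall. Its level was 0.87, 1.11, 0.13 and -1.20 in undifferentiated progenitors and -1.92, -4.84, -3.01 and -6.23 in the hepatocyte condition, with no overlap and a wide spread in the latter. The difference was -4.23 ± 0.75 (adjusted p = 0.00193, n = 4 and 4), and the dimmer probe gave -3.79 (adjusted p = 0.00017). The call held without any single array. On the 3 slides that held an array of each group, the difference was -5.95, -7.10 and -2.05. Itgav, the alpha partner of Itgb6, fell by 1.23 ± 0.26 (adjusted p = 0.00577), from 0.20, 0.57, 0.36 and 0.43 to -0.91, -0.82, -0.68 and -0.95, and its other probe also fell by 1.23.

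Of the 4 collagen-binding alpha chains Itga2 alone passed, and of the 4 laminin-binding chains Itga3 alone, both as lower. Itga2 stood at -1.75, -1.07, -0.64 and -0.08 in undifferentiated progenitors and at -3.68, -2.56, -3.78 and -1.95 in the hepatocyte condition, a difference of -2.11 ± 0.43 (adjusted p = 0.00503) and of -1.49, -0.20 and -3.05 within the 3 slides. Itga3 fell by 1.32 ± 0.33 (adjusted p = 0.0156), a call lost when the 2 groups were fitted alone or slide was a block. Its differences within 3 slides were -0.32, -0.32 and -2.23. The laminin receptor pair Itga6 and Itgb4 differed by -0.15 ± 0.29 and -0.32 ± 0.55, and Itgb1 by -0.23 ± 0.28, none of which passed. Itga2b, the platelet integrin, differed by 0.73 ± 0.22 (adjusted p = 0.0358), with overlapping groups, and did not pass without any of 5 of the 8 arrays (undifferentiated replicates 1 and 4, hepatocyte condition replicates 2, 3 and 4) or under other scalings.

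Col4a5 gave the tightest change. It read 0.04, -0.04, 0.16 and -0.05 in undifferentiated progenitors and -1.67, -1.81, -1.78 and -1.62 in the hepatocyte condition, a difference of -1.75 ± 0.24 (adjusted p = 0.000366). The difference was -1.77, -1.66 and -1.83 within the 3 slides. Col4a1 and Col4a2 differed by -0.60 ± 0.36 and -0.89 ± 0.36 and did not pass (adjusted p = 0.323 and 0.116).

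Col28a1, a collagen with von Willebrand factor domains best known from the sheaths of peripheral nerves, was not above background in undifferentiated progenitors (-9.26, -10.03, -9.81 and -9.68) and was above it on all 4 arrays of the hepatocyte condition (-3.83, -3.80, -4.44 and -4.71). By the bound, the rise was at least 9.5-fold (adjusted p = 1.58e-05). With normexp the difference was 1.26 in place of 5.5. It was not above background in the cholangiocyte condition or in primary cholangiocytes either, and was above it on 1 of 4 primary hepatocyte arrays. Dcn, the fibroblast proteoglycan decorin (5.07 ± 0.88), and Acta2, smooth muscle actin (2.62 ± 0.74), were higher too. They were 2 of the 9 tested stellate and fibroblast markers. Acta2 spanned -4.40 to 0.01 in the hepatocyte condition, and Dcn was highest in primary hepatocytes (0.76 on average against -0.73). Of the same 9, Lum and Reln were lower on average than in progenitors (-9.27 against -8.74 and -8.86 against -8.35). The mean level of those 9 was -8.37 to -7.07 in undifferentiated progenitors and -7.17 to -6.0 in the hepatocyte condition, with Des, Pdgfra, Lum and Hgf not above background in the latter, and their part in the rise of Col28a1 was not tested. Col5a1 differed by 2.53 ± 0.81, just past the threshold (adjusted p = 0.0499), a call lost without any of 6 of the 8 arrays, namely all but undifferentiated replicates 2 and 4. Col6a1 and Col6a2, chains of beaded filaments, differed by 2.77 ± 1.01 and 2.66 ± 0.88 and did not pass (adjusted p = 0.0820 and 0.0577).

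Of the laminins, Lamb3 and Lamc3 were lower and Lamb2 higher. Lamb3 stood at 3.40, 3.65, 3.77 and -0.49 in undifferentiated progenitors and at 1.01, 0.62, -1.48 and -0.10 in the hepatocyte condition (-2.57 ± 0.80, adjusted p = 0.0444). Undifferentiated replicate 4 lay within the range of the hepatocyte condition, and without it the difference was -3.60, while without any of 6 other arrays (undifferentiated replicates 1 to 3, hepatocyte condition replicates 2 to 4) the call was lost. Lamc3 differed by -1.79 ± 0.50 (adjusted p = 0.0258), lost without undifferentiated replicate 2 or hepatocyte condition replicate 2 or 4. Lamb2 differed by 1.64 ± 0.48 (adjusted p = 0.0339), with 3.91 and 4.15 on hepatocyte condition replicates 2 and 4 and 2.05 and 1.93 on the others, and was lost without either of the former or without undifferentiated replicate 2, 3 or 4. Lama5 and Lamc1 differed by -0.32 ± 0.33 and -0.02 ± 0.31 and did not pass.

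In the cholangiocyte condition no member passed against undifferentiated progenitors with limma, where 1.39% of all genes passed (0.789% higher and 0.597% lower). Of the 72 genes, 11 had an unadjusted p under 0.05, beside 3329 of all 25975 genes. The smallest adjusted p was 0.0979, for Col5a3 (3.69 ± 0.99). Col5a3 was not above background in undifferentiated progenitors (-8.94, -7.79, -8.34 and -9.61) and was above it on all 3 arrays of the cholangiocyte condition (-4.03, -4.38 and -6.54). Itgb6 stood at 1.81, 1.20 and 1.70, above each undifferentiated array, with a difference of 1.34 ± 0.81 (adjusted p = 0.516). Lamb1 (-1.56 ± 0.54, adjusted p = 0.220) and Itga3 (-0.91 ± 0.36, adjusted p = 0.305) did not pass either. The member median was 0.17, beside 0.15 over all genes. With the replicate number as a block in these 2 groups, the count of calls was 0 among the members and 0 over all 25975 genes.

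The cultured conditions were then set against each other. This comparison uses the same hepatocyte condition arrays as the former, so the values are given side by side and are not independent. Of the 72 genes, 2 were higher in the hepatocyte condition and 6 lower, where 15.5% of all genes passed (6.99% higher and 8.47% lower), and the member median was -0.06 beside -0.13 over all genes. Without cholangiocyte condition replicate 1, 4 members passed in place of 8. Itgb6 differed by -5.57 ± 0.81 (adjusted p = 0.000510, n = 4 and 3) and its dimmer probe by -4.95, with -6.54, -4.21 and -3.73 within slides. Itga2 differed by -1.97 ± 0.47 (adjusted p = 0.0115). These calls and that of Col28a1, at least 8.56-fold higher in the hepatocyte condition, held without any single array.

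Col4a5 differed by -1.0 ± 0.26 and Itgb5, a vitronectin receptor chain that also pairs with Itgav, by 1.53 ± 0.38 (adjusted p = 0.0147). Itgb5 stood at 2.34, 3.47, 2.85 and 3.82 in the hepatocyte condition and at 0.76, 2.06 and 1.96 in the cholangiocyte condition. Both calls were lost without cholangiocyte condition replicate 1, and that of Itgb5 also when the 2 groups were fitted alone. Col18a1 differed by -1.02 ± 0.26, a call lost without cholangiocyte condition replicate 2 or when the 2 groups were fitted alone, and its other probe differed by -0.80 and did not pass. Lamb3 (-2.80 ± 0.87, adjusted p = 0.0436) was lost without any array but hepatocyte condition replicate 1, and Lamc3 (-1.77 ± 0.54, adjusted p = 0.0402) without hepatocyte condition replicates 2 or 4 or cholangiocyte condition replicates 1 or 2.

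**Figure D3:**
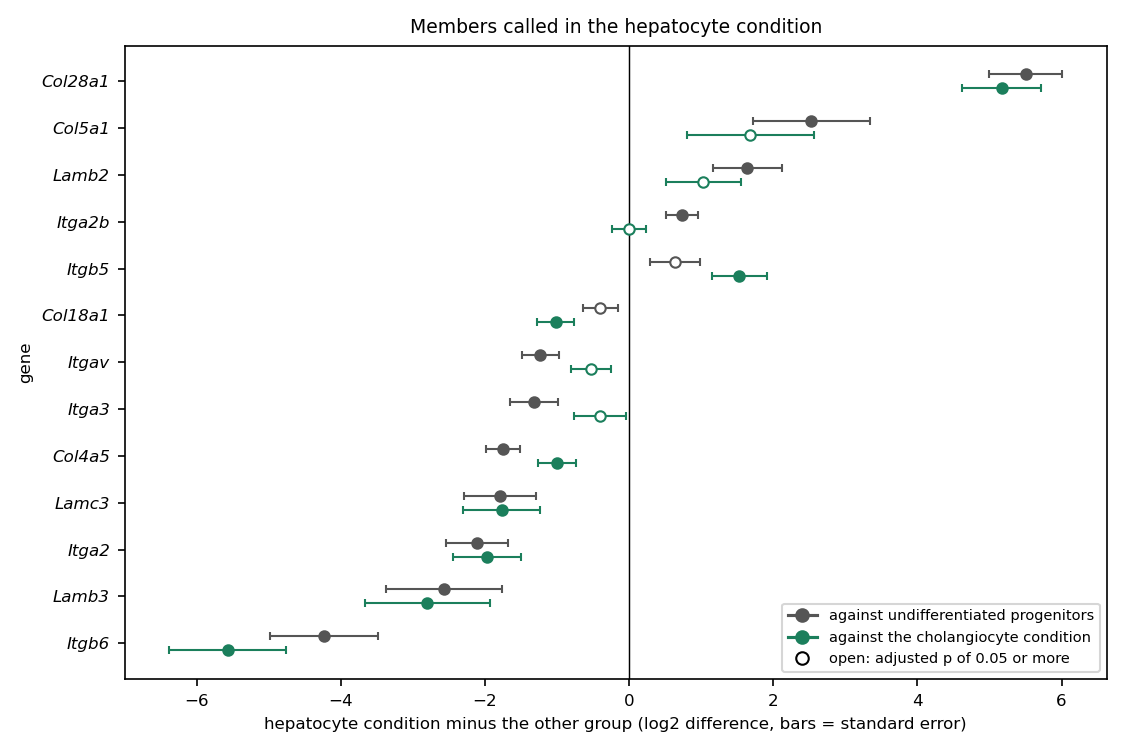
Log2 difference ± SE (horizontal axis) of the hepatocyte condition from undifferentiated progenitors (grey) and from the cholangiocyte condition (green) for the 13 genes called in either comparison, with open points where the adjusted p was 0.05 or more. Itgb6 lies at -4.23 and -5.57. Col28a1 lies at 5.5 and 5.17 against groups in which it was not above background, where the bounds are at least 9.5-fold and 8.56-fold.

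The design's main question was how the cells differentiated in culture compare with the primary cells. In the hepatocyte condition, 25 members were higher than in primary hepatocytes and 16 lower, where 59.7% of all genes passed (26% higher and 33.7% lower). Members' median was 0.32, beside -0.33 over all genes. The median over all genes lay at -0.15 when arrays were scaled by their medians and at -0.01 after quantile normalization. With normexp the split was 21 higher and 30 lower, beside 5478 and 14229 of all 25975 genes. Laminins passed in 6 cases higher and 2 lower (median 3.16), collagens in 11 and 9 (-0.38) and integrins in 8 and 5 (0.53).

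Lamb1, Lamb2, Lama5 and Lamc1, which were lower in primary hepatocytes than in primary cholangiocytes, were higher in the hepatocyte condition than in primary hepatocytes, whereas Lamb3 did not pass (1.0 ± 0.80, adjusted p = 0.297). Lamb1 read 2.80, 2.62, 3.40 and 3.65 (8.56 ± 0.50 above primary hepatocytes, adjusted p = 4.46e-09, n = 4 and 4), and Lamb2 differed by 8.51 ± 0.48. Lama5 differed by 5.73 ± 0.33 and Lamc1, the gamma chain of most laminins, by 3.85 ± 0.31. No array of the hepatocyte condition overlapped with primary hepatocytes for these 4 genes.

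Of the type IV chains, Col4a1 read 1.54, 2.56, 1.53 and 2.46 (5.06 ± 0.36 above primary hepatocytes, adjusted p = 3.75e-08), Col4a2 differed by 3.23 ± 0.36 and Col4a5 by 2.23 ± 0.24, while Col4a6 differed by -1.84 ± 0.37. The 2 probes of Col4a4 tested went in opposite directions, 1.07 and -0.91, and both passed, so no direction is given for it. Col6a1 read 0.13, 1.45, 1.83 and 1.0 against -6.62, -4.67, -5.72 and -5.46 (6.72 ± 1.01, adjusted p = 5.35e-05). It was above background on 2 of the 4 primary hepatocyte arrays, so the size is less exact. Col5a1 was at least 15.5-fold higher. Col7a1, the anchoring fibril collagen, differed by 4.07 ± 0.50, and the fibril-associated Col12a1 and Col16a1 by 3.93 ± 0.53 and 4.07 ± 0.56.

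Integrins gave Itgb4 (5.93 ± 0.55), Itga6 (5.19 ± 0.29, adjusted p = 3.05e-09) and Itga3 (4.13 ± 0.33) as higher in the hepatocyte condition. Itga6 read 3.09, 3.77, 3.27 and 2.98 there and -2.02, -1.25, -1.82 and -2.58 in primary hepatocytes. Itga2 was at least 8.40-fold and Itgb6 at least 4.18-fold higher than in primary hepatocytes, where neither was above background. With normexp these differences were 0.75 and 0.35 and did not pass (adjusted p over all alternatives up to 0.0636 and 0.521). The dimmer Itgb6 probe differed by -0.10 (adjusted p = 0.864). So Itgb6 in the hepatocyte condition lay below the progenitors by both probes, and above primary hepatocytes by the brighter probe alone. Itgb3 differed by 4.06 ± 0.61 and its other probe by -0.64, which did not pass. The brighter Itgb3 probe was above background on 2 of the 4 primary hepatocyte arrays.

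Lower in the hepatocyte condition were Col5a3 (-7.70 ± 0.92, adjusted p = 6.33e-06), Col18a1 (-2.40 ± 0.24, adjusted p = 9.76e-07) and the chains Itga8, Itga9, Itga1 and Lama1. Col18a1 read 4.75, 4.35, 4.24 and 3.64, below each primary hepatocyte array. Itga8 and Lama1 were not above background in any cultured group and at least 6.12-fold and 3.75-fold lower than in primary hepatocytes. Lama3 differed by -1.83 ± 0.55 (adjusted p = 0.0104) and its other probe by -5.92. Itga9 differed by -3.87 ± 0.53 and Itga1 by -1.77 ± 0.40, beside the endothelial markers given earlier, 8 of 8 of which were lower on average. Itgb2, the shared beta chain of leukocytes, differed by -1.74 ± 0.42. By their group means, 9 of 10 leukocyte and Kupffer cell markers were lower too, with a mean level of -5.99 to -5.26 against -3.52 to -3.04. The median difference over all genes was -0.33. The exception was Ptprc, at -3.50 on average in the hepatocyte condition against -4.87 in primary hepatocytes. Cd68, among the lower markers, was not above background in primary hepatocytes. The part of endothelial cells, leukocytes and Kupffer cells in the results was not tested. Itgae passed (-1.27 ± 0.36) with neither group above background, so no fold is given. Col17a1 (-2.39 ± 0.79), with overlapping groups, did not pass without hepatocyte condition replicate 1 and differed by -1.46 without primary hepatocyte replicate 2, which stood at -2.46 against -7.17 to -5.10.

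**Figure D4:**
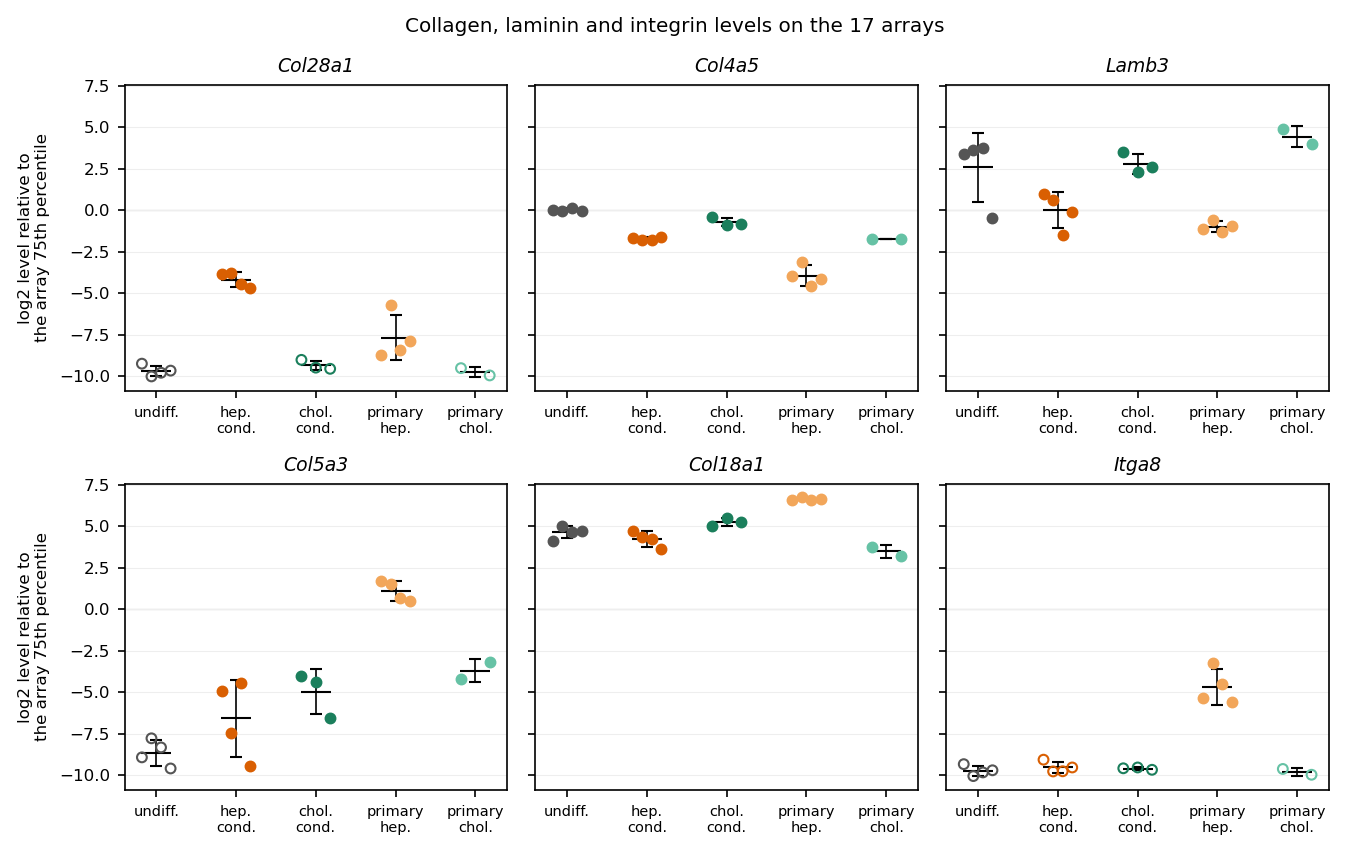
Log2 level, with each array's 75th percentile at 0 (vertical axis), of 6 genes on each array (points), by group, with mean and SD (bars). Open points mark groups with no array above background. Col28a1 was above background on every array of the hepatocyte condition, Col4a5 fell from about 0.03 to -1.72 on average, Lamb3 has 1 undifferentiated array at -0.49, and Col5a3, Col18a1 and Itga8 were highest in primary hepatocytes.

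Against primary cholangiocytes, of which there were only 2 arrays, the cholangiocyte condition had 8 members higher and 4 lower, where 19.6% of all genes passed (12% higher and 7.63% lower). The median was -0.09, beside 0.17 over all genes. Fitted on these groups alone, 2 members passed, Col12a1 and Col4a4. Itgb6 differed by -0.12 ± 0.97 (adjusted p = 0.952), with 1.81, 1.20 and 1.70 against 2.19 and 1.20. Lama5, Lamb1, Itga6, Itgb4, Col4a1 and Col4a2 differed by -0.72, 0.21, -0.99, -1.74, -0.93 and -0.93, and none passed.

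Col12a1 stood at -2.77, -0.48 and -2.09 against -7.00 and -6.50 (4.97 ± 0.68, adjusted p = 0.000214). Col18a1 differed by 1.78 ± 0.31 (adjusted p = 0.00115) and by 2.32 with its other probe. Itga1 differed by 3.14 ± 0.51 and by 1.33 with its other probe, and both passed, with -2.72, -1.88 and -1.59 against -4.24 and -6.17. Col4a4 was not above background in primary cholangiocytes and at least 6.29-fold higher in culture, although its other probe differed by 0.34 and did not pass. Col4a5 differed by 1.02 ± 0.31 (adjusted p = 0.0338).

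Of the other 7 calls, 6 were lost without 1 of the primary cholangiocyte arrays. Without primary cholangiocyte replicate 3, Lama3 (-3.09 ± 0.71) differed by -1.53, Lamc3 (2.42 ± 0.65) by 1.23 and Col20a1 (-2.82 ± 0.68) by -1.95, and none passed. Without primary cholangiocyte replicate 4, Lama1 (-2.93 ± 0.65) differed by -1.38, Itgb3 (2.62 ± 0.79) by 0.67 and Col6a1 (5.60 ± 1.30) by 4.85, and none passed. On all arrays, the 2 probes of Itgb3 tested separately did not give the same call. Lamc3 and Itgb3 were also lost without some cholangiocyte condition arrays (replicates 1 or 2, and 1 or 3). Itgae, at least 2.05-fold lower, was above background only in primary cholangiocytes. Lama1 was not above background in the cholangiocyte condition and was above it on 1 of the 2 primary cholangiocyte arrays, so its values have no exact size. With normexp, Lama1 and Itgae changed sign (0.28 and 0.40). The 2 primary cholangiocyte arrays lay far apart in some fibrillar chains. On replicates 3 and 4, Col1a1 stood at -1.82 and -7.51, Col3a1 at -3.12 and -8.44 and Col27a1 at 1.01 and -3.66, while Col2a1 stood at -8.71 and -3.71. The mean level of the stellate and fibroblast markers on these arrays was -6.86 to -6.43, and Dcn stood at -6.21 on one of them and at -2.45 on the other. Thy1 also lay far apart (-6.01 and -2.32), whereas Acta2 (-3.71 and -3.58) and Pdgfra (-6.04 and -5.87) did not. The part of stellate cells and fibroblasts in the spread of the collagens was not tested.

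Genes that act with the members were counted from lists of the pathway, beside the 15.3% of all genes that passed between the hepatocyte condition and progenitors (7.63% higher) and the 59.7% that passed against primary hepatocytes (26% higher). Of 22 tested enzymes that hydroxylate, cross-link or cut collagens, 6 were higher and 1 lower in the hepatocyte condition than in undifferentiated progenitors, and 16 higher and 2 lower than in primary hepatocytes. Adamts2, which trims procollagen, was at least 4.05-fold higher than in progenitors and P4ha1, a prolyl hydroxylase subunit, differed by 1.61 ± 0.42 (adjusted p = 0.0188), and P3h2, which acts on type IV collagen, was the lower gene (-2.03 ± 0.43, adjusted p = 0.00575). Against primary hepatocytes, Plod2, a lysyl hydroxylase, was at least 26.7-fold higher. Of 17 basement membrane partners and ligands, 1 was higher and 2 lower than in progenitors. Fn1, fibronectin, was higher by 1.49 ± 0.19 (adjusted p = 0.000223), while Npnt, nephronectin, fell by 2.40 ± 0.36 and Nid1, the nidogen that links laminin to type IV collagen, by 1.79 ± 0.49. Against primary hepatocytes 13 were higher and 1 lower.

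Of 8 receptors outside the integrins, 2 were higher than in progenitors and 0 lower. Bcam, a receptor of Lama5 laminins, differed by 2.14 ± 0.52 (adjusted p = 0.0130) and Ddr2, a receptor kinase for fibrillar collagen, by 3.99 ± 0.92. Ddr1, the epithelial collagen receptor kinase, differed by 0.60 ± 0.27 without passing, and was at least 543-fold above primary hepatocytes. Of 19 integrin adaptors, 1 was higher and 4 lower than in progenitors. Fermt1, the epithelial kindlin that activates integrins, fell by 2.53 ± 0.35 (adjusted p = 0.000371), and Lims2, a partner of integrin-linked kinase, was higher by 2.50 ± 0.45. Against primary hepatocytes, where 26% of all genes were higher and 33.7% lower, 15 adaptors were higher and 2 lower, with Flna, an actin cross-linker that binds integrin tails, higher by 8.10 ± 0.30. In the cholangiocyte condition none of the genes on these 4 lists passed against progenitors with limma, where 1.39% of all genes passed.

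The difference of differences asked whether the gap between cultured and primary cells was the same for both lineages. This value equals the difference between the conditions minus that between the primary cells, on the same arrays, and is not independent of those comparisons. It passed for 20 members as higher on the hepatocyte side and 9 as lower, where 37.8% of all genes passed (15.6% higher and 22.2% lower). With normexp the split was 16 higher and 31 lower, beside 3396 and 13594 of all 25975 genes. The values were 8.35 ± 0.82 for Lamb1 and 7.82 ± 0.79 for Lamb2, and in the other direction -6.43 ± 1.5 for Col5a3.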

How the data were processed

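Arrays were Agilent single-colour mouse arrays. Per the labels' protocols, total RNA was amplified with WT-Ovation Pico and labelled with Cy3, which can widen the spread of rare transcripts. Spot intensity was read by Agilent Feature Extraction 10.5.1.1 per the file headers, whereas the submitters' processing notes give version 9.53. The deposited intensity is background-subtracted by that program and not scaled between arrays. The authors' deposited table holds signed fold scores between group means and false discovery rates in percent, and served as an alternative.

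Here, log2 values of the deposited intensity were taken relative to the 75th percentile of the non-control probes of each array. Outlier spots were left out, a probe was kept when well above background on at least 2 of 17 arrays, and the probe with the highest mean stood for its gene. Names were updated through RefSeq tables (GRCm38.p6). Group means of all 5 groups were fitted on all arrays with limma 3.58.1 (R 4.3.3), moderated by eBayes, with Benjamini-Hochberg adjustment over 25975 genes. Tables and plots were made with Python 3.11.15, pandas 2.3.3, numpy 2.4.6 and matplotlib 3.10.9. The fit was tested on simulated data. The number of arrays limits the precision, and no depth applies.

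Members and gene lists were chosen with earlier results of these data known. Full statistics were given for Itgb6, for up to 3 genes per family and direction among those that passed, and for up to 2 that did not. Up to 2 genes per direction were named from each other list. The values of 1 member are not reported here, though it is in the counts and medians. Genes outside this rule are given with shorter statistics as partners or for their single-array values. Same-numbered arrays deviated together in the comparison of the cholangiocyte condition with progenitors (correlations of 0.385, 0.281 and 0.318 over genes), a pairing that comes from the data and not from the labels. For the hepatocyte condition against progenitors the correlations were -0.0308, -0.0706 and -0.148 for replicates 1 to 3 and 0.519 for replicate 4. In the remaining comparisons they lay between -0.231 and 0.141.

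Alternatives were normexp background correction (offset 50), median scaling, quantile normalization, other filters on dim probes, outlier spots kept, all probes or their mean, only the compared groups, slide or replicate number as a block, within-slide values, the authors' deposited table, and leaving out each array.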

Additional observations from a re-analysis of the deposited data

Results flagged for a closer look

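Of the groups of 4 arrays of the 72 genes, 144 were examined, and the remaining ones were not. Among these 144, 7 held an array far from the other 3, where chance gives about 1 in 20. In the hepatocyte condition, Col12a1 stood at -2.80 on one array and between -1.28 and -1.07 on the others, and Itga10 at -1.81 against -2.97 to -2.80. In undifferentiated progenitors, Lamb3 stood at -0.49 against 3.40 to 3.77, and Lamc3 at -3.24 against -4.03 to -3.93. In primary hepatocytes, Col16a1 stood at -4.05 against -3.32 to -3.31, Col20a1 at -4.49 against -4.14 to -4.09, and Lamc1 at -0.08 against -1.23 to -1.13.

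The gap between cultured and primary cells differed between the lineages by limma's test of the difference itself. The gap on the hepatocyte side exceeded that on the cholangiocyte side by 8.35 for Lamb1 (adjusted p = 2.88e-06), 7.82 for Lamb2 (3.88e-06) and 7.67 for Itgb4 (1.43e-05). It exceeded it by 6.18 for Itga6 (adjusted p = 2.89e-07), 5.99 for Col4a1 (3.10e-06), 4.16 for Col4a2 (7.46e-05), 7.24 for Col5a1 (0.000665) and 5.39 for Itga2 (4.33e-05). Col5a1 and Itga2 were not above background in primary hepatocytes, so these fitted values have no exact size, and the call for Itga2 was lost with normexp (adjusted p = 0.12). For Itgb6, also not above background in primary hepatocytes, the value was 3.92 (adjusted p = 0.0212), lost without primary cholangiocyte replicate 3 or with normexp, and the dimmer probe gave 1.49 without passing. In the other direction, the values were -6.43 for Col5a3 (adjusted p = 0.00390), -5.07 for Itga8 (3.18e-05), -4.91 for Itga1 (4.50e-05), -4.18 for Col18a1 (1.67e-06) and -2.50 for Col15a1 (0.0152). Itga8 was above background in primary hepatocytes alone, so its value has no exact size, and the call for Col15a1, not above background in primary cholangiocytes, was lost without primary cholangiocyte replicate 4 (adjusted p = 0.0586). For Itga9 the value was -2.39 (adjusted p = 0.0433), a call lost without any of 10 of the 13 arrays. Each contrast uses the 2 primary cholangiocyte arrays. It also contains the difference between the primary cells given earlier, which makes up most of the value for Lamb1, Lamb2 and Itga6.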

How the results depend on the processing

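Over the alternatives run, 129 of the counts of passing members lay within 1.5 times the reported count, 3 were higher and 6 lower. For the hepatocyte condition against progenitors (11 members), leaving out 1 array gave 6 to 10. The hepatocyte against the cholangiocyte condition (8 members) gave 4 to 9, the hepatocyte condition against primary hepatocytes 37 to 40, the cholangiocyte condition against primary cholangiocytes 9 to 12, the primary cells 32 to 40, and the difference of differences 24 to 31. Fitting only the compared groups, with fewer arrays, gave 2 members against primary cholangiocytes and 5 between the conditions, and the authors' deposited table gave 5 against primary cholangiocytes. Normexp gave 21 there in place of 12, 57 in place of 37 between primary cells and 47 in place of 29 in the difference of differences; the cause was not tested. With the replicate number as a block, the counts were 11, 0, 41, 11, 6, 38 and 26 in the order of progenitors against each condition, each condition against its primary cells, the conditions, the primary cells and the difference of differences; Lamb3 and Lamc3 no longer passed between the conditions. Signs changed for Itga2b within 1 slide (-0.08), Itga11 and Itgam against primary hepatocytes (-0.44 with normexp and -0.40 with the mean of probes), and against primary cholangiocytes for Lama1 and Itgae with normexp (0.28 and 0.40) and for Itgb6 (-0.62 to 0.37 without 1 array, 0.06 without cholangiocyte condition replicate 2). Between primary cells, leaving out 1 array gave -2.97 to 0.14 for Lama3 and -0.34 to 2.74 for Lama1, with the changed sign without primary cholangiocyte replicate 3. Probes near background have only bounds, and 2 arrays of primary cholangiocytes limit every comparison with them.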

Other observations

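Some fibrillar and cartilage collagens varied widely between arrays of a group. Col2a1, the main chain of cartilage, stood at -0.14 on hepatocyte condition replicate 3 and at -7.49, -7.11 and -6.54 on the others. Col11a1, its fibril partner, stood at -1.34, -6.06, -1.25 and -3.13 in undifferentiated progenitors and at -9.20, -2.46, -0.99 and -4.30 in the hepatocyte condition. Of the 10 fibrillar collagens tested, Col5a1 alone passed between these groups.

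Itgam, the leukocyte integrin alpha chain, was measured by 3 probes that did not agree in direction between the primary cells: the brightest gave -1.11 and passed, while the others gave 0.61 and 0.46 and did not pass.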
